A study of Mus musculus with 8 samples.

Results

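The mRNAs of the small (40S) ribosomal subunit were compared between hippocampi of wild-type and Mbd2-/- mice. Members were the rows whose gene symbol names a cytosolic small-subunit protein (Rps with a number, or Rpsa), leaving out symbols marked as pseudogenes (-ps) and the S6 kinases, together with Fau and Rack1, which carry subunit proteins under other names. The rule found 35 of the 19201 genes in the table, and 34 of these were abundant enough to be tested. Wild-type mice were C57BL/6, and Mbd2-/- mice were homozygous for a deletion in the gene of the methyl-CpG-binding protein Mbd2 that leaves its first exon in place. The mice were 10 to 12 weeks old, bred from heterozygous parents so that both genotypes were littermates, and no treatment is given for them. Each of the 8 libraries, 4 for each genotype, pooled the hippocampi of 2 mice, so that the replicates are pools and the p-values measure the spread between pools. The deletion is present in every cell of the animal, and whole hippocampus was sequenced, so that fewer cells of a type and less RNA per cell cannot be told apart.

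The 40S subunit binds the mRNA, scans it for the start codon and holds the site where codons are read, and its proteins wrap around a single ribosomal RNA in a head and a body with a platform. Cells keep these proteins in equal numbers, and their mRNAs, like those of the large subunit, start with a stretch of pyrimidines, the 5′ terminal oligopyrimidine (TOP) tract, through which mTOR signalling and the RNA-binding protein Larp1 set how strongly they are translated. In neurons part of these mRNAs is carried into dendrites, where local protein synthesis serves lasting synaptic change.

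The start sites of 26 members were found in RefSeq on GRCm38.p6, with 31 entries in all. Rps14, Rps20, Rps27a, Rps29 and Rps4l were among those with no entry that was used. Sequences of 30 bases, 15 on each side of the annotated start, are shown for the members whose mRNA differed most (Rps26, Rps10, Rps9), for one that was not called (Rps15a), for the ubiquitin-like fusion gene Fau and the scaffold gene Rack1, for the signalling target Rps6, for the paralogs Rps27 and Rps27l and for Rps15, the member with the highest level per kb of mRNA. They run 5′ to 3′ on the strand of the gene, with the longest unbroken run of C and T in capitals.
Rps26, chr10:128626492-128626521, minus strand: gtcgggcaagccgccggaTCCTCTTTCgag
Rps10, chr17:27635230-27635259, minus strand: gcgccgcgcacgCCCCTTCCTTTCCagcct
Rps9, chr7:3704026-3704055, plus strand: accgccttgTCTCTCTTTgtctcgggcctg
Rps15a, chr7:118116133-118116162, minus strand: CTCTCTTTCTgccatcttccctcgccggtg
Fau, chr19:6057932-6057961, plus strand: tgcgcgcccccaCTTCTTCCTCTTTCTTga
Rack1, chr11:48800345-48800374, plus strand: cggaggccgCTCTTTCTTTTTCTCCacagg
Rps6, chr4:86857353-86857382, minus strand: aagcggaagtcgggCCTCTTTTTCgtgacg
Rps27, chr3:90213634-90213663, minus strand: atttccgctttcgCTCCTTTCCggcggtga
Rps27l, chr9:66946071-66946100, plus strand: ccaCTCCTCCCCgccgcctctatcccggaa
Rps15, chr10:80292416-80292445, plus strand: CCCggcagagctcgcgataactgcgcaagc

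The runs in Fau and Rack1 were 16 bases long, those in Rps26, Rps9, Rps27 and Rps27l 9 bases, and that in Rps15 3 bases. Rps27l has another entry, at chr9:66946398-66946427, whose longest run has 4 bases. A run of at least 6 bases stood in the 30-base window of 17 of the 31 member entries (54.84%). Over all 32851 annotated starts outside chromosome 18 the share was 29.2%. Over the promoter of 300 bases (250 before the start and 50 after it), searched on both strands, the core letters of ETS-family sites, CCGGAAG, stood in 38.71% of the member entries and 8.858% of all promoters. The core of Sp1 sites, GGGCGG, was found in 54.84% of the member entries and 35.66% of all. A site of the YY1 type, AAGATGGC, was found in 9.677% of them against 2.749%, and the letters TATAAA in 6.452% against 13.62%. Each motif was counted on its own, and no overlap between them was removed. These are matches of letters, and an annotated start may lie a few bases from the one used in hippocampus.

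RNA depleted of ribosomal RNA was read as paired ends of 100 bases, and the libraries held 8087750 to 23790825 reads on genes. Values are normalized counts, the reads on a gene divided by a size factor of the library. Mbd2, the targeted gene, had 295, 363, 371 and 354 normalized counts in wild-type replicates 1 to 4 and 244, 239.6, 339 and 217 in the Mbd2-/- ones. Its groups overlapped, and its log2 fold change was -0.43 with an adjusted p of 0.0174 (limma, Benjamini-Hochberg) and an exact two-sided permutation p of 0.0571, where the smallest possible is 0.0286. Leaving out replicate 3 of the wild-type, or replicate 1 or 2 of Mbd2-/-, ended the call (adjusted p of 0.0542 to 0.0625, limma), and the counts do not separate the first exon, which this allele keeps. Of 15 markers of hippocampal excitatory neurons all were expressed, and 3 were higher and 3 lower in Mbd2-/-, with a median log2 difference of 0.00. Their summed level was 98778 to 100567 normalized counts in wild-type and 108748 to 114100 in Mbd2-/- libraries. Markers of tissue around the hippocampus moved with genotype. All 20 choroid plexus markers were higher, and their summed level was 24707 to 26450 normalized counts in wild-type and 47866 to 54283 in Mbd2-/- libraries. Of 15 thalamus markers 12 were lower, with summed levels of 8428 to 8627 and 5910.2 to 6645. The part of these cells in the values of the ribosomal protein mRNAs was not tested.

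Of the 34 members tested, 32 were higher in Mbd2-/- hippocampus and 0 were lower (limma on log2(normalized count + 1), Benjamini-Hochberg adjusted p under 0.05), where 12.0% of all 14504 genes tested were called higher and 10.0% lower. The differences were small. The median log2 fold change of the members was 0.41, that is 1.33-fold, with quartiles at 0.37 and 0.45, where the median of all genes tested was -9.1e-05 and their quartiles -0.14 and 0.16. In 28 of the 34 all 4 Mbd2-/- libraries lay above all 4 wild-type ones, which held for 12.1% of all genes tested. The members not called were Rps14 and Rps15a. When a trend on transcript length was removed from every library, 14 members were called higher, against 8.08% of all genes, with a median of 0.14 and a range from -0.41 to 0.48. Standard errors ran from 0.054 to 0.12 on the log2 scale.

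**Figure D1:**
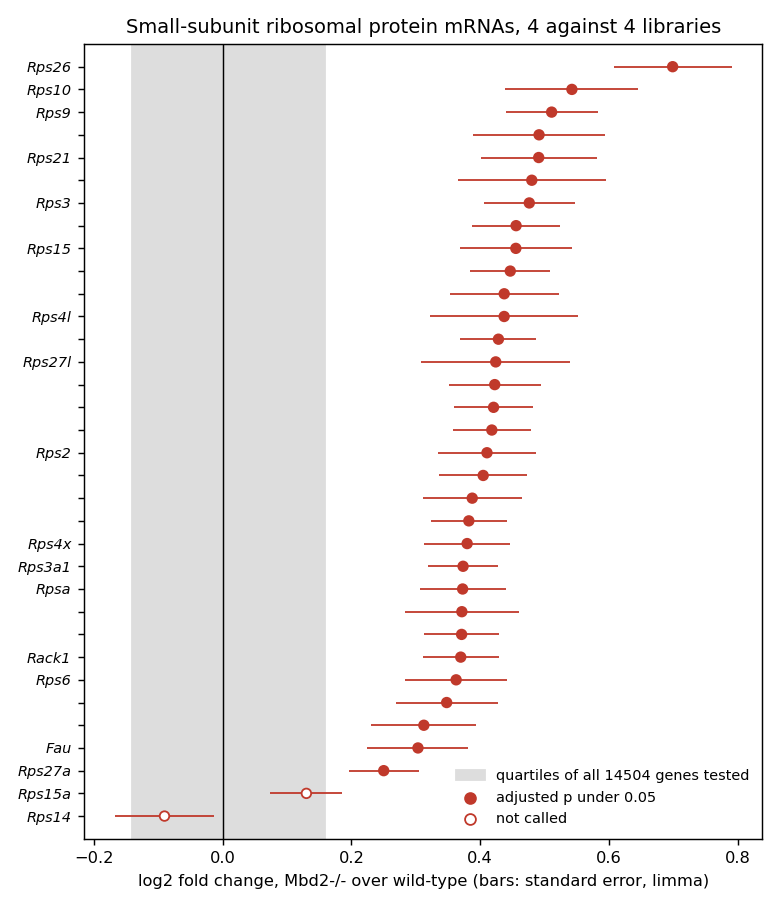
Log2 fold change of each of the 34 tested members (points) with its standard error (bars), Mbd2-/- over wild-type, ordered by size, with filled points for an adjusted p under 0.05 in limma and names for the members whose values the text gives. All but Rps14 lie above 0, 32 are filled, and the grey band spans the quartiles of the 14504 genes tested, from -0.14 to 0.16.

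The rise was seen in each Mbd2-/- library and was smallest in replicate 4. Against the wild-type mean of each gene, the median member stood at 0.48, 0.40, 0.49 and 0.22 on the log2 scale in Mbd2-/- replicates 1 to 4, and between -0.03 and 0.02 in the wild-type libraries. Together the tested members took 0.363% to 0.373% of the reads on genes in wild-type libraries and 0.512%, 0.474%, 0.507% and 0.416% in Mbd2-/- replicates 1 to 4. In replicates 1, 2 and 3, 33 of the 34 members exceeded every wild-type library, and in replicate 4 this held for 28. This library also stood apart over all genes, since it differed from the other Mbd2-/- libraries by 9.73 to 16.3 times the counting variance over 12060 genes, whereas the other pairs within a genotype differed by 2.07 to 6.20 times. Its summed choroid plexus level of 47866 was the lowest of the Mbd2-/- libraries, and its thalamus level of 6645 the highest. Without it 33 members were called higher and the median was 0.46. Within a genotype the members also moved together from library to library, with a mean pairwise Pearson's r of 0.545 over 561 pairs of members, 94.7% of them positive. These correlations rest on 8 libraries that all members share, and are a description.

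**Figure D2:**
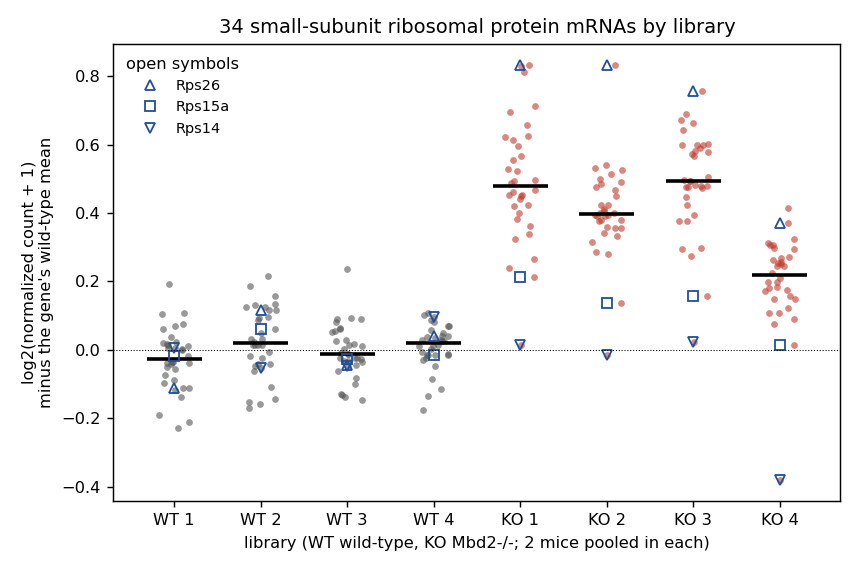
Log2 level of the 34 tested members in each library, relative to the wild-type mean of the gene, with a dot for each member and a black line at the median. The median was 0.48, 0.40, 0.49 and 0.22 in Mbd2-/- (KO) replicates 1 to 4 and near 0 in wild-type (WT) libraries, and the open symbols mark Rps26 at the top, Rps15a low and Rps14 lowest in the Mbd2-/- libraries.

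The largest differences, with no length trend removed, were in Rps26, Rps10 and Rps9. Rps26 lies at the exit of the channel, where it touches the mRNA upstream of the start codon, and it rose most. Its normalized counts were 481, 564, 504 and 535 in wild-type replicates 1 to 4 and 927, 927, 879.8 and 673 in Mbd2-/- replicates 1 to 4, with no overlap. The means were 521 ± 35.9 and 852 ± 121 (SD, n = 4 each), which differ by 0.70 ± 0.09 on the log2 scale (limma's estimate and standard error; adjusted p = 0.000164), and this was also the smallest p of the members. The gene lies at chr10:128061586-128063562 on the minus strand of mm9.

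Rps10, a protein of the head that is marked with ubiquitin when ribosomes stall, had 553, 707, 692 and 655 normalized counts in the wild-type libraries and 1139, 926, 983 and 769.7 in the Mbd2-/- ones (log2 difference 0.54 with standard error 0.10, limma adjusted p = 0.00238). Rps9, which lines the entry of the channel and helps to unwind mRNA, had 2092, 1751, 2019 and 1936 in wild-type and 2804, 2810.3, 3100.1 and 2418 in Mbd2-/- libraries (0.51 with standard error 0.07, limma adjusted p = 0.000228). Neither gene overlapped between the genotypes. Rps3, the neighbour of Rps9 at the entry, rose by 0.48 on the log2 scale. With the length trend removed all 4 were still called, with Rps26 at 0.32, Rps9 at 0.32 and Rps10 at 0.27. The largest differences in that fit were in Rps20 (0.48), Rps3 (0.47) and Rack1 (0.42), whose longest annotated transcripts exceed 2000 bases. With a trend on coding length removed instead, Rps20 stood at 0.22, Rps3 at 0.36, Rack1 at 0.29 and Rps26 at 0.46.

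The 15 universal proteins, which bacteria also have, included 13 that were higher and the 2 that were not called, and their median was 0.42 on the log2 scale. All 16 tested proteins of the families that bacteria lack, Rack1 left aside, were higher, with a median of 0.40 and a range from 0.25 to 0.70. By place in the subunit, all 15 proteins of the head were higher (median 0.43), and 15 of 17 tested proteins of the body and platform (median 0.37). The difference between these groups was not tested.

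Rpsa and Rack1 have duties outside the ribosome. Rpsa, a platform protein also known as the laminin receptor, had 3297, 3280.3, 3241 and 3356 normalized counts in wild-type libraries and 4414, 4549, 4592 and 3586 in Mbd2-/- libraries (log2 difference 0.37 with standard error 0.07, limma adjusted p = 0.00122). Rack1, a scaffold for protein kinase C on the head, had 2311, 2189, 2257 and 2256 against 2937, 2982, 3172 and 2586 (0.37 with standard error 0.06, limma adjusted p = 0.000559). In both genes every Mbd2-/- library lay above every wild-type one. Rps6, the target of the S6 kinases and used in its phosphorylated form as a marker of neuronal activity, rose by 0.36 on the log2 scale, and was not called with the length trend removed (0.13).

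The members made as fusions with a ubiquitin-like protein were among the called members with the smallest differences. Rps27a, which is cut from ubiquitin, had 815, 794, 819 and 787 normalized counts in wild-type and 949, 980.3, 985 and 911 in Mbd2-/- libraries, with no overlap (log2 difference 0.25 with standard error 0.05, limma adjusted p = 0.00430). Fau, from which the protein Rps30 is cut, had 729.9, 655, 771 and 744 against 871, 941, 1009 and 771 (0.30 with standard error 0.08, limma adjusted p = 0.0120). The lowest Mbd2-/- library of Fau, replicate 4, was level with the highest wild-type one. Both calls ended and both signs turned with the length trend removed (Rps27a -0.01, adjusted p = 0.893, and Fau -0.04, adjusted p = 0.722, limma), and neither gene was called with the coding length trend removed (0.06 and 0.09).

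Rps14 and Rps15a were the tested members that were not called. Rps14, a platform protein near the decoding site, had 2953, 2838, 2851 and 3147 normalized counts in wild-type libraries and 2971, 2916, 2989 and 2261 in Mbd2-/- libraries. Except for Mbd2-/- replicate 4, which was the lowest, all of these lay within the wild-type range, and the genotypes differed by -0.09 on the log2 scale, with a standard error of 0.08 (limma adjusted p = 0.429). Without that library it was 0.007. It was called lower with the length trend removed (-0.41, adjusted p = 2.55e-05, limma) and with the coding length trend removed (-0.29, adjusted p = 0.00405).

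Rps15a, a protein of the body that binds the central part of the ribosomal RNA, had 1193, 1259, 1186 and 1195 normalized counts in wild-type and 1399.5, 1329, 1347 and 1219 in Mbd2-/- libraries, so that 3 of the 4 Mbd2-/- libraries lay above all wild-type ones (log2 difference 0.13 with standard error 0.06, limma adjusted p = 0.106). Without Mbd2-/- replicate 4 it was called, at 0.17 (adjusted p = 0.00839). With a trend on the longest annotated transcript removed it was also called higher, at 0.21 (adjusted p = 0.0209, limma), against a median of 0.14 for the members in that fit.

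To ask which members moved unlike the rest, the log2 values of each library were centred on the mean of the 34 tested members and all genes were fitted again. On this scale 3 members were called, Rps26 above the mean of the members and Rps15a and Rps14 below it, against 68.1% of all genes, whose median moved to -0.40 by the centring. With so many genes called the adjustment was mild, and it does not control the error among the 34 members alone. Relative to the mean of the other members, Rps14 stood at 1.41 to 1.58 on the log2 scale in wild-type libraries and at 0.89 to 1.06 in Mbd2-/- libraries, and the centred fit put its relative change at -0.49 (adjusted p = 0.000130, limma). Rps15a stood at 0.14 to 0.20 in wild-type and at -0.17 to -0.02 in Mbd2-/- libraries (-0.27 in the fit, adjusted p = 0.00398). Rps26 stood at -1.17 to -0.99 and at -0.91 to -0.64 (0.30 in the fit, adjusted p = 0.00484). In none of the 3 genes did the genotypes overlap on this scale, Mbd2-/- replicate 4 included. In the same fit without Mbd2-/- replicate 4, Rps10, Rps27a and Rps29 were called as well, 6 in all. With a trend on transcript length removed 9 members were called, Rps14 and Rps26 among them. Rps15a was not, and its relative change had the other sign (0.05).

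**Figure D3:**
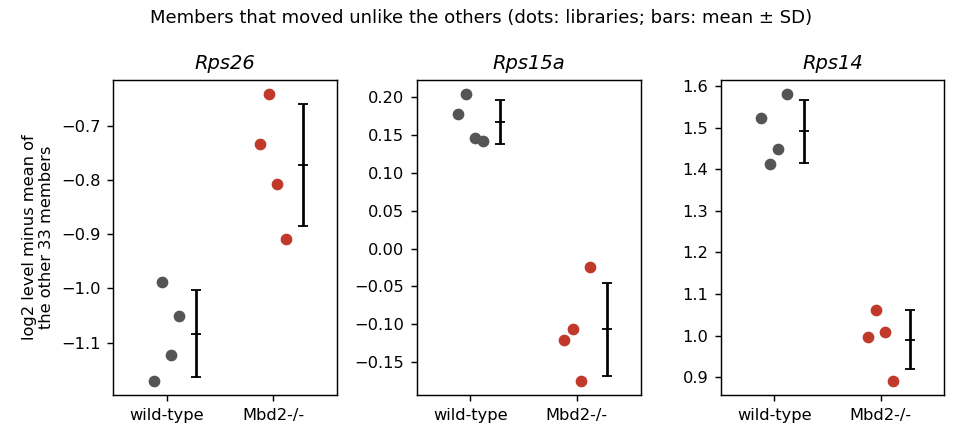
Log2 level of Rps26, Rps15a and Rps14 minus the mean of the other 33 tested members in the same library, each panel on its own axis, with a dot for each library and bars for mean and SD (n = 4). Rps26 was nearer to the others in Mbd2-/- libraries, whereas Rps15a went from between 0.14 and 0.20 to below 0 and Rps14 from between 1.41 and 1.58 to between 0.89 and 1.06.

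Rps14 is the single member on the chromosome that carries Mbd2. It lies at chr18:60934164-60938200 in mm9, 9790 kb before Mbd2, at chr18:70727843-70785785. The part of this distance in the result was not tested. The members lie on 15 chromosomes, with 9 on chromosome 7, where Rps9, the third in size of change, and Rps15a, which was not called, are both found.

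By level, the members spanned a wide range. Per kb of mRNA, taking for each gene the annotated transcript with the longest coding sequence, Rps15 (5101 normalized counts per kb in wild-type), Rps21 (4997) and Rps14 (4896) were highest, and did not differ beyond their SDs of 344, 502 and 238. Rps15, a head protein near the decoding site, had 2311, 2719.8, 2576 and 2595 normalized counts in wild-type and 4012, 3359.9, 3836 and 2872 in Mbd2-/- libraries (log2 fold change 0.46). Rps21, on the body, had 1692, 2150.2, 1975 and 2058 against 3213, 2508, 2974 and 2406 (0.49). In both, the genotypes did not overlap. Neither Rps15 (0.11) nor Rps21 (0.12) was called with the length trend removed. Across the 34 members the wild-type count and the log2 fold change had a Spearman's rho of -0.04, as a description.

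Rps27, Rps27l and Rps4l were the lowest members. Rps27l, a paralog of Rps27 that responds to p53, had 83.9, 97.8, 78.4 and 77.5 normalized counts in wild-type libraries and 130.2, 108, 104 and 112 in Mbd2-/- libraries (log2 difference 0.42 with standard error 0.12, limma adjusted p = 0.0161), with no overlap, and its call ended when replicate 3 or 4 of the wild-type, or replicate 1 of Mbd2-/-, was left out. Rps4l, which RefSeq lists as a transcribed pseudogene related to Rps4x, had 163, 156, 205 and 175 against 236, 253, 276 and 187 (0.44, adjusted p = 0.0135), its genotypes overlapped through Mbd2-/- replicate 4, and it was not called without Mbd2-/- replicate 2. In a count without it, added after the data were seen, 31 of 33 members were higher, with a median of 0.41. Rps4x itself, the X-linked gene of the body protein, had 2245, 1900.5, 1793 and 1944 against 2457, 2634, 2732 and 2413 without overlap (0.38, adjusted p = 0.00105), and Rps3a1, the mouse gene of the body protein Rps3a, had 1832, 1761, 1705 and 1688 against 2383, 2293, 2294 and 2086 (0.37). Rps2, at the channel entry, had 2424, 2067, 2459 and 2369 against 3183, 3055, 3518 and 2665 (0.41). After removal of the length trend Rps2 was called (0.18), and Rps27l (0.08), Rps4l (0.18), Rps4x (0.12) and Rps3a1 (0.12) were not. With the coding length trend removed Rps27l alone of these 5 was not called (0.17).

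Rps27, a zinc-finger protein of the body, was listed at 10.5, 6.02, 10.0 and 7.44 normalized counts in wild-type and 10.2, 8.23, 14.3 and 8.65 in Mbd2-/- libraries. Its mean lay below the minimum of 10, and it was not tested. The genotypes overlapped. At 24.6 normalized counts per kb in wild-type it was the lowest of the 35 members, under its minor paralog Rps27l at 147.

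Ribosomal protein genes have many processed pseudogenes, and a read that fits several loci may be dropped or shared. How such reads were treated is not given in the sources used here. When every 100-base window of the member mRNAs was searched in mm9, 31 of the 35 had windows with an exact copy at another locus, and 17 had one for over 50% of their windows. The share was 99.6% for Rps27, 97.8% for Rps12, 94.4% for Rps6, 87.6% for Rps13 and 87.4% for Fau, and 0% for Rps3, Rack1 and Rps27l, among others. Rps12 and Rps6 had 1458 and 919 normalized counts per kb, and over the 35 members the share and the level per kb had a Spearman's rho of -0.20, as a description. The 4 members with no copied window were all higher, with log2 fold changes from 0.37 to 0.48. Of the 16 tested members with a copy for over 50% of the windows all were higher, with a median of 0.38, and of the other 18, 16 were higher, with a median of 0.43. The part of these copies in the level of Rps27 was not tested. The share was 40.2% in Rps26, 28.7% in Rps15a and 20.5% in Rps14. The 5 pseudogene rows listed for ribosomal proteins together held 459 to 643 normalized counts in wild-type libraries. Of 4 tested, 1 was called higher, Rpl14-ps1 at 0.39, which was not called with the length trend removed (0.07), and Rps15a-ps4, with 90.8 ± 21.8 normalized counts in wild-type pools and 128 ± 29.1 in those of Mbd2-/- (SD, n = 4), had an adjusted p of 0.0525 (limma).

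**Figure D4:**
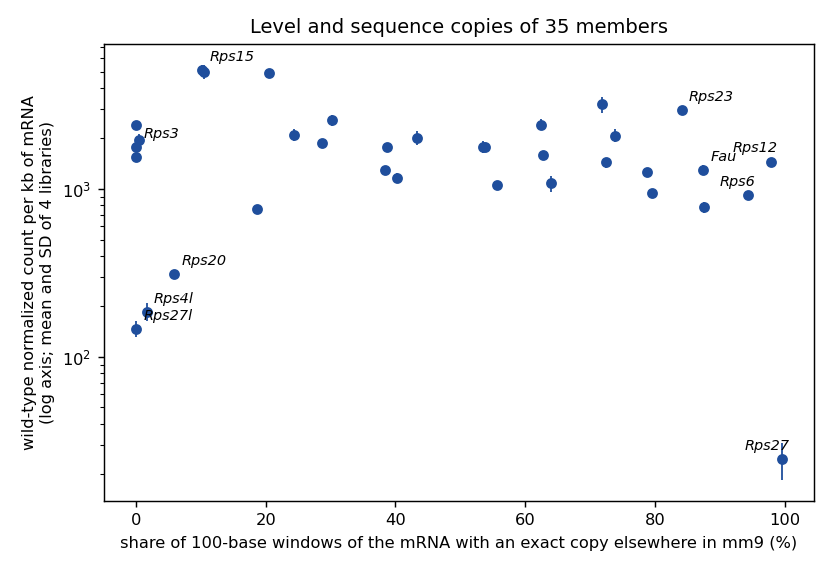
Wild-type level of each of the 35 members (normalized count per kb of mRNA, log axis, mean and SD of 4 libraries) against the share of 100-base windows of its mRNA that recur exactly elsewhere in mm9. Rps27 stands alone at 24.6 with a share of 99.6%, while Rps12 and Rps6, at 97.8% and 94.4%, lie among the other members. Rps4l, Rps27l and Rps20 are low with few copies. The wild-type mean of Rps20, 1156 normalized counts, is divided here by an annotated mRNA of 3706 bases.

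The members are short. Their longest annotated transcript had a median of 903 bases, against 3189 over all genes tested. Among all genes, the median log2 difference was 0.18 for the 25% with the shortest transcripts and -0.11 for the 25% with the longest. After a smooth trend on this length was removed from every library, 14 members were higher and 1, Rps14 (-0.41), was lower, with a median of 0.14 and with 8.08% of all genes called higher. For 5 members, Rps15a, Rack1, Rps20, Rps3 and Rps19, the longest annotated transcript exceeds 2000 bases, although their coding sequences have 360 to 954 bases. All 5 were among the 14 called higher in this fit. With the length of the coding sequence in its place, an alternative added after the data were seen, 24 members were higher and 1, Rps14 (-0.29), lower, with a median of 0.24 and 7.63% of all genes called higher. Rps15a then had a log2 fold change of -0.09 (adjusted p = 0.218, limma). Over the members themselves the length of the mRNA and the log2 fold change had a Spearman's rho of -0.05.

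Genes that work with the subunit were counted from lists (the plot of lists by library). Of 48 large-subunit proteins tested 43 were higher and 0 lower, with a median of 0.41. Of 32 proteins of the mitochondrial small subunit 17 were higher and 0 lower, with a median of 0.29, and 10 were higher without Mbd2-/- replicate 1. With the length trend removed 27 large-subunit proteins were higher (median 0.19) and 5 mitochondrial ones (0.11), where the median of the small subunit was 0.14. The median of the list in Mbd2-/- replicates 1 to 4 was 0.51, 0.42, 0.54 and 0.23 for the large subunit and 0.40, 0.23, 0.27 and 0.12 for the mitochondrial one, so that replicate 4 was the lowest in both, as in the members.

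Of 57 tested genes on a list of 40S assembly factors, 7 were higher and 3 lower, with a median of 0.03, against 12.0% and 10.0% of all genes tested. Rps19bp1 (0.41) and Emg1 (0.29), a methyltransferase of the small ribosomal RNA, were the higher ones with the largest changes, and Nvl (-0.27) and Nol6 (-0.24) the lower ones. With the length trend removed Rps19bp1 (0.12) and Emg1 (0.05) were not called. The count of 7 was unstable, at 1 to 12 when single libraries were left out, with 1 without wild-type replicate 1, 2 or 4 or Mbd2-/- replicate 1, 2 without Mbd2-/- replicate 2 or 3, 3 without wild-type replicate 3 and 12 without Mbd2-/- replicate 4.

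Among proteins that bind or modify the subunit, 10 of 28 were higher and 1 lower (median 0.17). The higher ones were the initiation factors Eif1 (0.25) and Eif2s1 (0.32), 7 subunits of Eif3, among them Eif3h (0.37), and Mcts1 (0.32), which recycles 40S subunits. Zfp598, the ligase that marks Rps10 on stalled ribosomes, was lower (-0.27). With the length trend removed 8 of the 28 were higher and 2 lower, and the median was 0.05. Eif1 (0.06), Mcts1 (0.02), Eif3d (0.08), Eif3m (0.09) and Eif3k (-0.07) were then not called. Eif1ax, Eif2s2 and Eif2d, not called before, were among the 8. Of 18 other mRNAs with a TOP tract 12 were higher and 1 lower (median 0.20), and Eif3e, Eif3f and Eif3h stand in both lists. The elongation factor Eef1a1 rose from 25623 ± 434 to 33874 ± 1116 normalized counts (SD, n = 4; log2 fold change 0.40, adjusted p = 9.96e-06, limma) and Tpt1 rose by 0.37, while Eef2 rose by 0.17. Larp1, which binds the TOP tract and holds back these mRNAs, was the lower one (-0.18, adjusted p = 0.0208), and was not called with the length trend removed (-0.07, adjusted p = 0.326, limma).

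**Figure D5:**
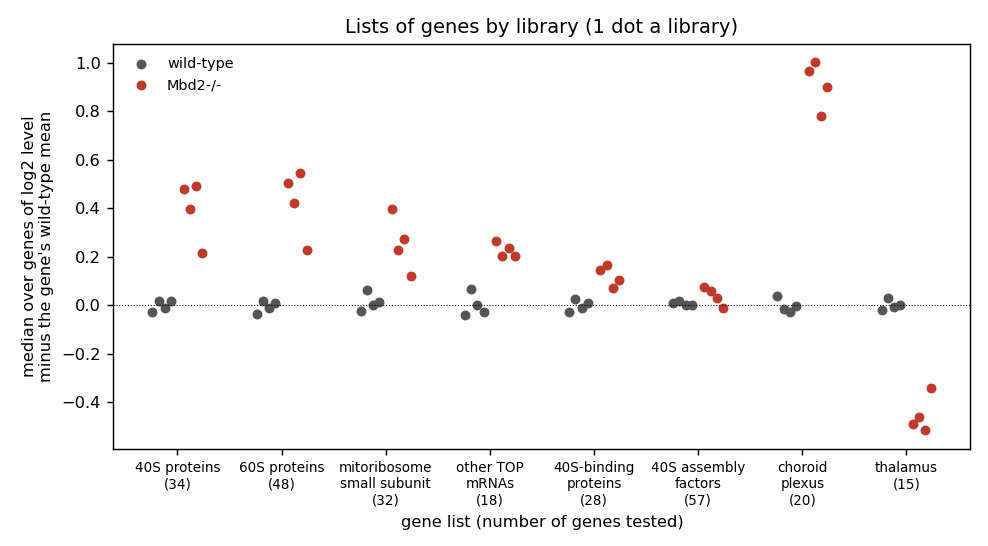
Median over the genes of each list of the log2 level relative to the wild-type mean of the gene, with a dot for each library (grey wild-type, red Mbd2-/-) and the number of genes tested in brackets. The 40S and 60S lists were above 0 in every Mbd2-/- library and lowest there in replicate 4, the 40S assembly factors stayed near 0, the choroid plexus markers rose by more, and the thalamus markers fell.

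Markers of other cell types of the hippocampus also differed. Of 10 astrocyte markers 7 were higher (median 0.27), of 10 for oligodendrocytes 6 (0.17), of 10 for microglia 7 (0.30) and of 10 for endothelial cells 2 (0.13), with none lower, and their summed levels ran from 131197 to 153472 normalized counts for astrocytes, 96743 to 103546 for oligodendrocytes and 6336 to 7249 for microglia in Mbd2-/- libraries, above the wild-type maxima of 120667, 83818 and 5819. The summed level of the excitatory neuron markers, given above, was also higher in every Mbd2-/- library than in any wild-type one. With the length trend removed 9 astrocyte markers were higher (median 0.30), 5 for oligodendrocytes (0.17), 4 for microglia (0.21) and 3 for endothelial cells (0.04). Alas2, the single blood marker listed, was lower (-0.23). The summed choroid plexus markers made up 0.195% to 0.209% of the reads on genes in wild-type and 0.376% to 0.421% in Mbd2-/- libraries. The part of these shifts in the rise of the members was not tested.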

How the data were processed

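The authors removed duplicate reads, mapped the remaining ones onto mm9 (STAR) and ran DESeq2 on genotype. Versions, the read counter and the strand used in counting are not given in the sources used here. The signal deposited by the authors is a normalized count, a gene's reads over the size factor that DESeq2 gave the library. Reads were recovered from it, with 100% of values whole within 0.01 of a read. The authors' fold changes, test statistics and p-values were not used.

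A gene entered the test if its normalized counts averaged 10 or more. The values, as log2(normalized count + 1), were fitted by limma 3.58.1 under R 4.3.3 (trend and robust moderation, genotype as the only term, 4 against 4 libraries, Benjamini-Hochberg over all genes, called under 0.05). The code was tested on simulated counts. Libraries of a genotype differed by at least 2.07 times the counting variance over genes, so that both counting and the spread between libraries limit the precision. Values with ± are SDs. Coordinates, transcripts and copies come from GENCODE vM1 on mm9 (18063 of 19201 symbols with a length), and start-site sequences from RefSeq GRCm38.p6. Values in every library are given for the members highest and lowest per kb, with the largest and smallest fold changes or the smallest p, those not called, fusions, Rpsa, Rack1 and paralogs. Rps3, Rps6, Rps12 and others outside this rule were named after their values were seen. Some members are not reported singly here and enter only the counts. The members and lists were chosen with earlier results of these data known. Alternatives used edgeR 4.0.16, DESeq2 1.42.0, voom, other scalings, pseudocounts, filters, length and GC trends, a replicate block and single libraries left out.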

Additional observations from a re-analysis of the deposited data

Results flagged for a closer look

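In 70 groups of 4 libraries (35 members in 2 genotypes), a library stood far from the other 3 by Dixon's test in 3, and chance flags about 1 in 20 groups. Mbd2-/- replicate 4 was the lowest library of its group for Rps14 (2261 normalized counts, a gap of 0.901 of the range) and for Rps13 (476, 0.864). Rps13, a protein of the body that was called higher at 0.31, was not called without wild-type replicate 4 or Mbd2-/- replicate 1. Wild-type replicate 2 was the highest of its group for Rps15a (1259, a gap of 0.875 of the range). The causes were not tested.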

How the results depend on the processing

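DESeq2, edgeR, voom, TMM and upper quartile scaling, pseudocounts of 0.5 and 5, no filter, a minimum mean of 50 and removal of the GC trend left every tested member on the same side of the threshold, with the same sign. Without trend and robust moderation Rps13, Rps29, Rps4l and Fau were no longer called. A test against a minimum change of 1.2-fold called 1 member, Rps26, and 76 genes in all. The fit with the length trend removed called 14 members higher and 1 lower, with a median log2 fold change of 0.14. It called 2106 genes, against 3185 without this step, 27 large-subunit genes (against 43), 5 mitochondrial (against 17) and 2 assembly genes (against 7). It gave 9 members that differ from the members' mean, and Fau (-0.0426), Rps27a (-0.0148) and Rps15a relative to the members (0.0519) with the other sign. With the coding length trend, an alternative chosen after seeing the data, as was the centring on the members, these counts were 24, 1, 2062, 31, 4, 1 and 4, the median was 0.24 and Rps15a changed sign (-0.0902). Of the assembly genes, 3 were called higher by DESeq2 and without the filter, and 4 without trend and robust moderation. At the minimum change of 1.2-fold 1 large-subunit gene and 0 mitochondrial and assembly genes were called. Mbd2 was not called at that minimum (-0.43, adjusted p = 1, limma) or without trend and robust moderation (-0.43, 0.0731). With single libraries left out, 30 to 33 members and 2068 to 5155 genes were called, 5155 without Mbd2-/- replicate 4, and the median ran from 0.37 to 0.46. The ranges were 40 to 44 large-subunit genes, 1 to 12 assembly genes, 10 to 22 mitochondrial genes, with 10 without Mbd2-/- replicate 1, and 3 to 6 members that differ from the members' mean. Rps14 ran from -0.13 to 0.00684 and turned positive without Mbd2-/- replicate 4. Mbd2 ran from -0.56 to -0.35 and was not called without Mbd2-/- replicate 1 or 2 or wild-type replicate 3. Rps27l was not called without wild-type replicate 3 or 4 or Mbd2-/- replicate 1, Rps29 without Mbd2-/- replicate 3 and Rps4l without Mbd2-/- replicate 2. Equal replicate numbers mark no shared animal, and the deviations of same-numbered libraries had correlations of -0.10, -0.06, 0.07 and 0.04, with 3 of 8 libraries closest to their own number. The fit with a replicate block called 32 members (median 0.41), 3192 genes, 45 large-subunit, 17 mitochondrial and 4 assembly genes. Where no construction shows it, the cause was not tested.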
